A study of Arabidopsis thaliana with 18 samples.

Results

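The B-type cyclins CYCB1;1 to CYCB1;4, CYCB2;1 to CYCB2;4 and CYCB3;1 were followed in leaf mesophyll protoplasts of Arabidopsis thaliana, the wall-less cells released from a leaf by enzymes, as the protoplasts were taken into culture. The 9 genes were picked by locus out of 24532 genes counted, and each was read through splice variant 1, the only variant of it in the counts. No annotated gene overlaps any of the 9 loci.

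RNA was sequenced from 18 libraries, 3 each of nph4-1 arf19-1 and WT protoplasts at Day 0 (freshly isolated), Day 4 and Day 6 of culture. All plants were of the ecotype Columbia-0, and nph4-1 arf19-1 carries mutations in ARF7 (NPH4) and ARF19, a pair of transcription factors that activate auxin-responsive genes. All cultured protoplasts, of both genotypes, were embedded in alginate gel and kept in the dark in medium with the synthetic auxin 2,4-D and the cytokinin-like compound thidiazuron. The treatment label reads "fresh" at Day 0 and "control" at Day 4 in both genotypes and "control" in WT at Day 6, but "yucasin", the name of an inhibitor of auxin biosynthesis, in nph4-1 arf19-1 at Day 6, where the sample titles and the study's description name no inhibitor. At Day 6 the genotype and that label cannot be told apart.

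B-type cyclins bind cyclin-dependent kinases and drive cells into mitosis, and their destruction through the anaphase-promoting complex (APC/C) lets cells leave it. Their transcripts are known to accumulate between late S phase and mitosis and to be scarce in cells that have stopped dividing, as mature mesophyll cells have. Many genes of the G2 and M phases carry the mitosis-specific activator (MSA) element in their promoters, with the core letters AACGG, which transcription factors of the MYB3R family bind. CYCB1;1 is also known to be induced by DNA damage through the transcription factor SOG1.

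The libraries held 3438524 to 12119944 mapped reads, with a median of 6291177. Values are given as reads, or as counts per 1000000 mapped reads (CPM) after TMM scaling, and 3 reads corresponded to between 0.2475 and 0.8725 per 1000000 mapped reads. ARF7 stood at 36.9 to 49.4 CPM in nph4-1 arf19-1 and 152 to 165 CPM in WT at Day 0 and was below WT in all mutant libraries on every day. ARF19 separated the genotypes at Day 4, with 8.87 to 10.03 CPM in nph4-1 arf19-1 against 43.6 to 62.0 CPM in WT, and likewise at Day 6, but not at Day 0, with 10.09 to 13.1 CPM against 6.91 to 11.2 CPM. The summed level of 5 mesophyll markers was 1150 to 2960 CPM in nph4-1 arf19-1 and 785 to 1250 CPM in WT at Day 0. Its range was 232 to 332 CPM in nph4-1 arf19-1 and 183 to 384 CPM in WT on Day 4, and 167 to 317 CPM in nph4-1 arf19-1 and 357 to 523 CPM in WT on Day 6. The epidermis, guard cell, stomatal lineage and trichome lists, with 10 genes in all, summed to no more than 12.6 CPM per list in any library, and the stomatal lineage markers SPCH and MUTE had at most 2 reads in any library. The third gene of the stomatal lineage list reached 36 reads in nph4-1 arf19-1 and 24 in WT at Day 0. In cultured libraries it had at most 6 reads.

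The promoters are shown first because the MSA core is what most of these genes share. In the 250 bases before the annotated transcription start, AACGG, searched on both strands, occurred in 6 of the 9 B-type cyclins and 19 times in all. Each of the 6 held at least 3 matches, while 20.58% of the 27561 protein-coding genes held at least 1 in a window of the same length and 0.733% held at least 3. CYCB1;2 had 4 matches and the other 5 had 3 each, while CYCB1;4, CYCB2;4 and CYCB3;1 had none of these letters in the window. The stretches below hold the closest pair of matches of each of the 6 genes with 10 bases on either side where the window allows, read toward the gene, with the matches in capitals (AACGG on the gene's own strand, CCGTT where the match lies on the other strand).
CYCB1;1: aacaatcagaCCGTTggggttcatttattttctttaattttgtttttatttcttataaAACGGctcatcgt
CYCB1;2: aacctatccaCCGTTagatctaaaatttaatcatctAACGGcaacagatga
CYCB1;3: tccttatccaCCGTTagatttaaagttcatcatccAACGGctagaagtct
CYCB2;1: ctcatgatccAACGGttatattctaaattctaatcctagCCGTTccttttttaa
CYCB2;2: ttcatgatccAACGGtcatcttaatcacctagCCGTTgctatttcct
CYCB2;3: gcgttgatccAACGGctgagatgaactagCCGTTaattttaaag

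In the order of the lines, the stretches lie at chr4:17624309-17624379 (minus strand), chr5:1861732-1861782 (minus), chr3:3627298-3627347 (minus), chr2:7663960-7664013 (plus), chr4:16901462-16901508 (plus) and chr1:7137861-7137904 (minus) of the RefSeq assembly TAIR10.1. In all 6 the matches of the closest pair pointed in opposite directions. Their first letters lay 48 bases apart in the first gene and 19 to 29 bases apart in the other 5. In all 3 B2 cyclins shown the matches followed the same order of orientation, a reverse match farthest from the start, then the pair of a forward and a reverse match.

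**Figure D1:**
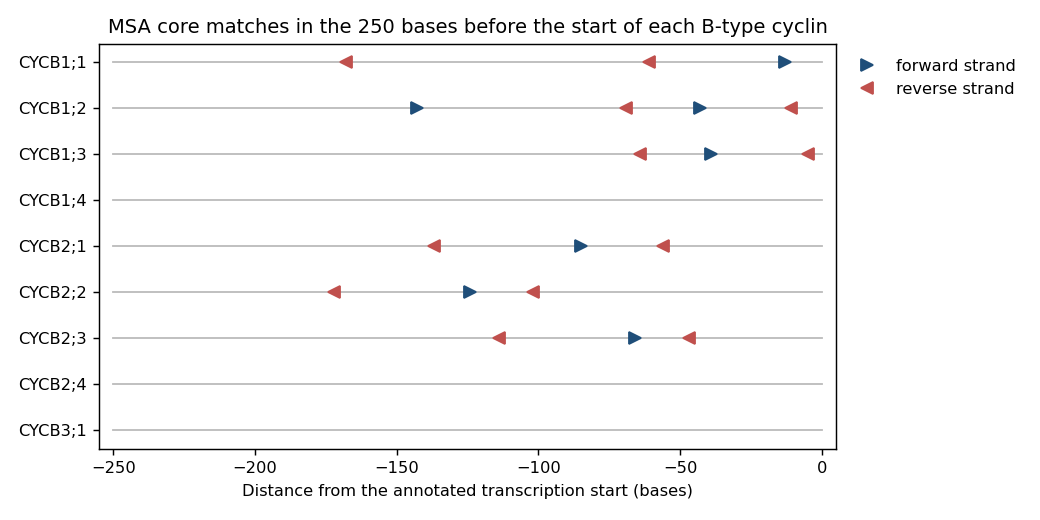
Position of each AACGG match in the 250 bases before the annotated start of the 9 B-type cyclins, with the distance from the start in bases on the x axis, right-pointing marks for forward matches and left-pointing marks for reverse matches. In 3 rows there is no mark, and the other 6 hold 3 or 4 marks.

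To set a window with the motif beside one without it, the whole 250 bases of CYCB1;2 (chr5:1861704-1861953, minus strand), with 4 matches in capitals, and of CYCB2;4 (chr1:28630790-28631039, minus strand), with none, are given from the same assembly. Both genes were among the most abundant B-type cyclins at Day 6.
CYCB1;2: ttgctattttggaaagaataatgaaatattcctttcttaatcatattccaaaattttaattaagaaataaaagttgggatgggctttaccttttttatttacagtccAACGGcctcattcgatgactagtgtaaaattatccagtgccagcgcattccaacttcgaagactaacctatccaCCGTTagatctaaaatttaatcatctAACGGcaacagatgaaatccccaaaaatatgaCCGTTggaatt
CYCB2;4: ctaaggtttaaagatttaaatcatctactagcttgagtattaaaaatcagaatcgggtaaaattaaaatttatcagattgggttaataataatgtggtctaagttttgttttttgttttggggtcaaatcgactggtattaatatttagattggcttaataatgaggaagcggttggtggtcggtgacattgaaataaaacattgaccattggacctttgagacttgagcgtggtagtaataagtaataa

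At Day 6 the B-type cyclins were lower in nph4-1 arf19-1 than in WT protoplasts. All 8 that had enough reads for a test passed both limits (|log2 fold change| above 2 and FDR below 0.01, edgeR quasi-likelihood test with Benjamini-Hochberg adjustment over 25202 variants), against 4.01% of all variants tested that were called lower at Day 6. For all 9 genes every nph4-1 arf19-1 library lay below every WT library, as it did for 34.7% of the tested variants. The median log2 fold change of the 8 was -3.40, against -0.04 over all variants, and the genes ran from -3.77 to -2.73. Since RNA was taken from whole cultures, fewer dividing cells and less transcript per cell cannot be told apart in these values.

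At Day 4 the family was already lower in nph4-1 arf19-1. The groups did not overlap for any of the 9 genes (24.8% of tested variants were separated in that direction). The counts of 7 of the 8 tested genes passed both limits, against 1.8% of all variants called lower on that day, and all 8 had an FDR below 0.01 (13% of all variants). The median of the 8 was -2.84, against -0.01 over all variants. WT replicate 2 was the highest of the 3 Day 4 WT libraries for all 9 genes. Among the Day 6 WT libraries replicate 2 was the highest for 8 of the 9 genes and replicate 3 the lowest for 8.

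**Figure D2:**
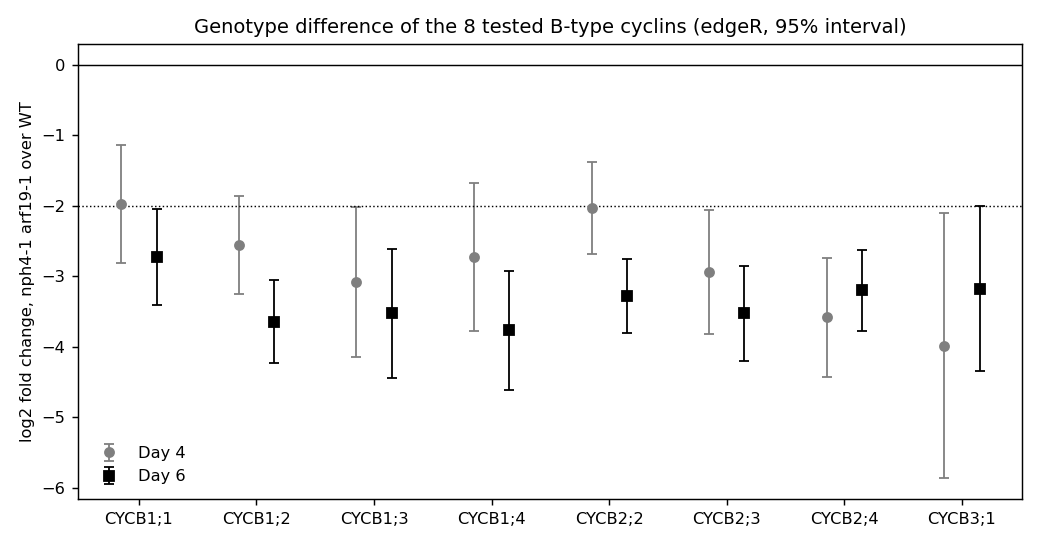
log2 fold change of nph4-1 arf19-1 over WT (y axis) for 8 tested B-type cyclins (x axis) at Day 4 (circles) and Day 6 (squares). The 95% intervals are approximate, from an SE derived from the edgeR F statistic, and can be narrower than counting error. A dotted line marks the fold limit of -2. All 16 points lie below 0, and CYCB1;1 at Day 4 is the one point above the dotted line.

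CYCB1;2 (AT5G06150, chr5:1859279-1861703, minus strand, 5 exons), of the B1 group that acts from G2 to mitosis, had the highest mean level of the family in cultured WT protoplasts. At Day 6 it had 11, 25 and 7 reads (2.04, 3.30 and 1.83 CPM) in the nph4-1 arf19-1 libraries, against 272, 327 and 296 reads (31.4, 36.4 and 27.8 CPM) in the WT libraries. The groups lay far apart, with a log2 fold change of -3.65 (SE 0.302, edgeR FDR 4.03e-09). At Day 4 the reads were 9, 14 and 8 in nph4-1 arf19-1 and 56, 124 and 67 in WT, at -2.55 (SE 0.353, FDR 1.25e-05). In nph4-1 arf19-1, with 1, 0 and 1 reads at Day 0, the gene was 13.9-fold higher at Day 4 than at Day 0, with a 95% exact counting interval of 3.54 to 120 that covers counting error only. In WT, where each Day 0 library held 1 read, the same ratio was 60.7-fold (20.5 to 296). By Day 6 the ratio to Day 0 was 20.4-fold in nph4-1 arf19-1 (5.32 to 174) and 187-fold in WT (63.8 to 908).

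CYCB1;3 (AT3G11520, chr3:3625286-3627273, minus strand, 5 exons) had 5, 9 and 0 reads in nph4-1 arf19-1 at Day 6, against 90, 107 and 72 reads in WT. Its log2 fold change of -3.52 (SE 0.467, edgeR FDR 2.32e-06) rested on a group with 1 library at 0. At Day 4 it was at -3.08, with 4, 2 and 4 reads in nph4-1 arf19-1 against 31, 57 and 29 in WT. In nph4-1 arf19-1 the 4, 2 and 4 reads of Day 4 stood against 0, 3 and 2 reads at Day 0, a ratio of 1.80 with an interval of 0.559 to 6.70, and the mutant libraries of the 2 days overlapped. In WT the reads were 21.6-fold higher at Day 4 than at Day 0 (interval 8.20 to 80.4).

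CYCB1;4 (AT2G26760, chr2:11401118-11403433, plus strand, 5 exons) gave the largest fitted difference at Day 6, with 3, 3 and 2 reads in nph4-1 arf19-1 and 55, 71 and 64 reads in WT, at -3.77 (SE 0.429, edgeR FDR 1.52e-06). At Day 4 it was at -2.73, with 2, 1 and 3 reads in nph4-1 arf19-1 against 11, 27 and 18 reads in WT. No read of it was found at Day 0 in either genotype, so its rise can be bounded only from below, against the 3 reads that a count of 0 over the group allows. On that floor the Day 4 level was at least 1.80-fold higher in nph4-1 arf19-1 and at least 13.8-fold higher in WT, and the Day 6 level was at least 2.53-fold higher in nph4-1 arf19-1 and at least 39.7-fold higher in WT.

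The B2 cyclins, which like the B1 group act around the G2 to M transition, gave values of the same size. CYCB2;2 (AT4G35620, chr4:16901596-16904001, plus strand, 10 exons) had 10, 18 and 8 reads (1.85, 2.37 and 2.095 CPM) in nph4-1 arf19-1 at Day 6, against 178, 201 and 211 reads (20.5, 22.3 and 19.8 CPM) in WT, a log2 fold change of -3.28 (SE 0.267, edgeR FDR 3.02e-09). At Day 4, with 6, 13 and 5 reads in nph4-1 arf19-1 against 31, 53 and 50 reads in WT, it was at -2.03 (FDR 7.03e-05) and lay on the fold limit, at -1.71 to -1.92 without WT replicate 2 or 3 or nph4-1 arf19-1 replicate 1 or 3. Relative to Day 0, the Day 4 reads were 10.8-fold higher in nph4-1 arf19-1 (interval 2.68 to 94.1) and 14.1-fold higher in WT (6.66 to 35.8).

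CYCB2;3 (AT1G20610, chr1:7134659-7137828, minus strand, 12 exons) had 8, 10 and 6 reads in nph4-1 arf19-1 at Day 6 against 158, 164 and 147 reads in WT, at -3.53 (SE 0.344, edgeR FDR 3.91e-08). At Day 4 it had 3, 7 and 2 reads in nph4-1 arf19-1 against 42, 62 and 24 in WT, at -2.94. WT libraries held 47.2 times as much at Day 4 as at Day 0 (interval 12.8 to 394). CYCB2;4 (AT1G76310, chr1:28627694-28630789, minus strand, 12 exons) had 13, 18 and 4 reads in nph4-1 arf19-1 at Day 6 against 164, 196 and 176 reads in WT, at -3.20 (SE 0.293, FDR 4.27e-08). On Day 4 it had 5, 3 and 1 reads against 49, 68 and 33 reads, at -3.58 (SE 0.432, FDR 5.25e-06). Every mutant library lay below the WT range for both genes on both days. The closest were 1.23 CPM in nph4-1 arf19-1 and 3.10 CPM in WT, for CYCB2;3 at Day 4. In nph4-1 arf19-1, with no CYCB2;4 read at Day 0, its rise to Day 4 was at least 2.69-fold. In WT its Day 4 reads stood against 0, 1 and 0 reads at Day 0 (111-fold, interval 19.5 to 4400).

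The rarest members were CYCB2;1 (AT2G17620, chr2:7664055-7666522, plus strand, 10 exons) and CYCB3;1 (AT1G16330, chr1:5582387-5587461, minus strand, 23 exons), and neither had a read at Day 0. The B2 gene fell short of the minimum for a test. It had 2, 0 and 1 reads in nph4-1 arf19-1 and 21, 22 and 11 reads in WT at Day 6, which put it 10.7-fold lower with a counting interval of 3.47 to 53.4, and 0, 0 and 1 reads against 2, 9 and 6 reads at Day 4, 12.6-fold lower (1.97 to 525). The single B3 gene, known from its part in meiosis, had 1, 4 and 0 reads in nph4-1 arf19-1 at Day 6, against 21, 36 and 22 reads in WT, and a log2 fold change of -3.18 (SE 0.599, edgeR FDR 0.000271). On Day 4 it had 1, 0 and 0 reads in nph4-1 arf19-1 against 10, 13 and 5 reads in WT, at -3.98 (FDR 0.00357). That call was lost, with an FDR of 0.0105 to 0.0185, without WT replicate 2 or any 1 of the 3 mutant libraries, and the fitted value was -5.98 without nph4-1 arf19-1 replicate 1, which held the only read of its group.

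CYCB1;1 (AT4G37490, chr4:17621886-17624308, minus strand, 8 exons), also a G2 and M phase cyclin, was the member with reads in every fresh library. It showed the smallest genotype difference at Day 6, with 6, 4 and 2 reads in nph4-1 arf19-1 against 36, 52 and 49 reads in WT, at -2.73 (SE 0.349, edgeR FDR 1.50e-06), although its 95% interval of -3.41 to -2.04 overlapped those of the other 7 tested genes. At Day 4 it had 3, 4 and 2 reads in nph4-1 arf19-1 against 12, 23 and 14 reads in WT and missed the fold limit, at -1.97 (SE 0.426, FDR 0.00102). That value lay on the limit, and the gene was called, at -2.26 to -2.05, without WT replicate 1 or 3 or nph4-1 arf19-1 replicate 2. It alone had more than 3 reads in a library at Day 0, with 9, 13 and 8 reads (1.68, 2.16 and 1.74 CPM) in nph4-1 arf19-1 and 12, 16 and 10 reads (2.31, 2.1 and 2.03 CPM) in WT. Those groups overlapped, and the log2 fold change was -0.19 (95% interval -0.87 to 0.49, FDR 0.771).

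In nph4-1 arf19-1 the mean of the same gene was 1.86 ± 0.262, 0.510 ± 0.168 and 0.721 ± 0.338 CPM at Days 0, 4 and 6 (SD, n = 3 each). Against Day 0 it stood at -1.85 on the log2 scale at Day 4 (SE 0.459, edgeR FDR 0.00102) and at -1.37 at Day 6 (SE 0.434, FDR 0.00687), short of the fold limit both times, where 36.1% and 35.9% of all variants had an FDR below 0.01 downward. The first of these was -2.13 (FDR 0.00158) and past both limits without mutant replicate 2 of Day 4. Both rested on the scaling, since with library totals in place of TMM they were -0.85 (FDR 0.106) and -0.48 (FDR 0.326). The other members had too few reads at Day 0 to show a fall. In WT its mean was 2.15 ± 0.144, 2.07 ± 0.856 and 4.85 ± 0.840 CPM at Days 0, 4 and 6. The WT change to Day 4 was -0.07 (95% interval -0.69 to 0.55, FDR 0.849), which turned to 0.96 (FDR 0.00874) with library totals in place of TMM, and that to Day 6 was 1.17 (SE 0.276, FDR 0.00057), which became 2.34 (FDR 1.11e-07), past both limits, with library totals. The change to Day 6 in nph4-1 arf19-1 less that in WT was -2.54 (SE 0.514, FDR 0.000633), past both limits, where 3.96% of all variants were called lower, and -2.82 (FDR 0.000264) with library totals. That to Day 4 was -1.78 (SE 0.562, FDR 0.0266), short of them. These contrasts with Day 0 were added after the reads at Day 0 had been seen.

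**Figure D3:**
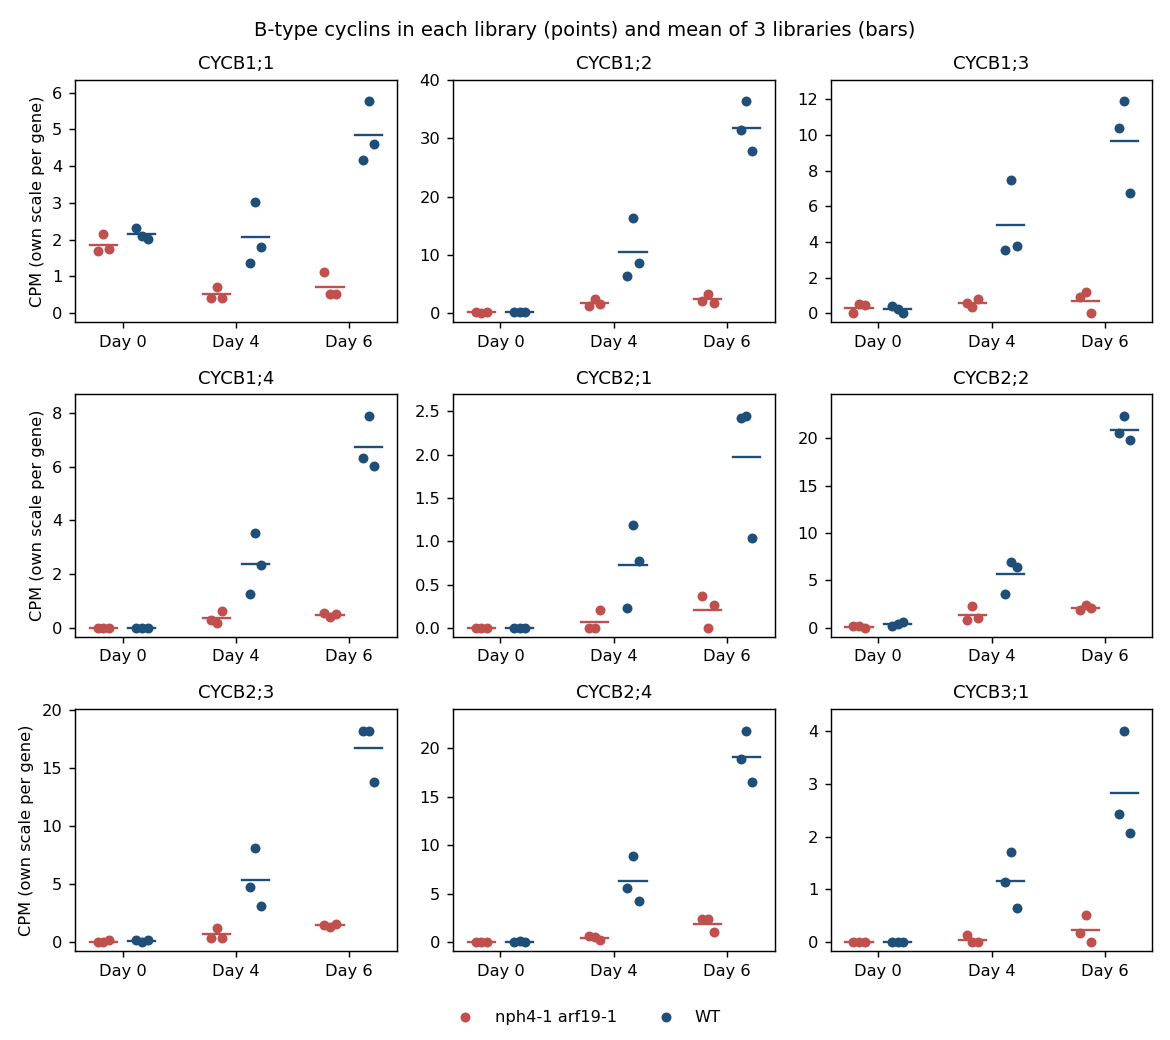
CPM of each of the 9 B-type cyclins (y axis, own linear scale per panel) at Days 0, 4 and 6 (x axis), with 1 point per library and a bar at the mean of 3 libraries, nph4-1 arf19-1 to the left of WT on each day. In every panel the 3 WT points lie above the 3 nph4-1 arf19-1 points at Days 4 and 6, and 1 panel has values well above 0 at Day 0.

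Over the whole family there was little to compare before culture. No B-type cyclin was called between the genotypes at Day 0 by edgeR or DESeq2 (1.28% of all variants were called higher and 0.0595% lower), and none had an unadjusted p below 0.05. A total of 0 reads in a Day 0 group allows up to 0.188 CPM in nph4-1 arf19-1 and 0.169 CPM in WT. Between Day 0 and Day 4 in nph4-1 arf19-1, CYCB1;2, CYCB2;2 and CYCB2;4 were called higher, 3 of the 8 tested genes, set against a large background of 20.5% of all variants. In WT 7 of the 8 were called higher at Day 4, where 24.9% of all variants were. Most members were at the edge of detection in fresh protoplasts, so the size of their rise is loosely bounded. With library totals in place of TMM the median of all variants between Day 0 and Day 4 in WT moved to 1.26, against 0.23 with TMM, on the log2 scale, and the fitted WT rises of those 7 genes stood above either.

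Later changes were smaller. In nph4-1 arf19-1 none of the 8 genes passed both limits between Day 4 and Day 6 with edgeR (1.35% of variants were called higher) and 1 had an unadjusted p below 0.05. This was CYCB2;4, at 1.99 (SE 0.551, FDR 0.0104), which lay on the limits and was called by DESeq2 (2.04, FDR 0.00411). Among the other 7 the fitted changes ran from 0.47 to 2.07, and the highest rested on 5 reads over 1. In WT no gene was called either (0.643% of variants were called higher), while 6 of 8 had an FDR below 0.01, against 9.27% of all variants, at 1.24 to 1.89. The largest of these was in CYCB2;2, with 178, 201 and 211 reads at Day 6 against 31, 53 and 50 at Day 4 (SE 0.213, FDR 1.72e-06). The WT changes of 3 genes passed both limits, at 2.06 to 2.08, when Day 4 WT replicate 2 was left out, and DESeq2 called none.

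The genotype difference did not change past the limits between Day 4 and Day 6. The difference at Day 6 less that at Day 4 ran from -1.25 in CYCB2;2 (95% interval -2.19 to -0.30, edgeR FDR 0.0709) to 0.81 in CYCB3;1 (-1.62 to 3.23, FDR 0.684), with a median of -0.67. None of the 8 was called in either direction by edgeR or by DESeq2 (0.508% of all variants were called lower and 2.3% higher), and 1 had an unadjusted p below 0.05. Most of the intervals reach past 1 log2 unit. Set against the earlier WT cultures, the Day 6 nph4-1 arf19-1 protoplasts had less of these transcripts than WT had at Day 4. For 8 of the 9 genes all Day 6 mutant libraries lay below all Day 4 WT libraries, as for 29.3% of tested variants, and 7 of 8 had an FDR below 0.01 (17.5% of variants). The 3 B1 cyclins other than CYCB1;1 passed the fold limit too, at -2.55 to -2.03 (1.5% of variants called lower), but only the one at -2.55 did so when Day 4 WT replicate 2 was left out. The call at -2.03 was also lost without mutant replicate 1 or 3 of Day 6 (-1.905 and -1.894), and that at -2.25 without mutant replicate 2 of Day 6 (FDR 0.0148).

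The make-up of the family's reads differed between fresh and cultured protoplasts. CYCB1;1 took 30 of 40 reads (75.0%) in nph4-1 arf19-1 and 38 of 55 reads (69.1%) in WT at Day 0. On Day 4 it took 8.74% in nph4-1 arf19-1 and 5.29% in WT, and on Day 6 its shares were 6.67% and 4.26%. The libraries of a group were alike in this, with 66.7 to 81.8% in nph4-1 arf19-1 and 66.7 to 70.6% in WT at Day 0 and at most 10.2% in any library at Day 6. The 4 genes with the most reads at Day 6 took similar proportions in the genotypes, out of 180 reads in nph4-1 arf19-1 and 3219 in WT. CYCB1;2 took 23.9% of the reads in nph4-1 arf19-1 and 27.8% in WT, and the B2 cyclins numbered 2, 4 and 3 took 20% and 18.3%, 19.4% and 16.7%, and 13.3% and 14.6%. The summed level of the 9 genes was 10.9, 12.0 and 7.86 CPM in nph4-1 arf19-1 and 115, 131 and 98.4 CPM in WT at Day 6. For Day 4 the sums were 4.56, 7.74 and 5.36 CPM in nph4-1 arf19-1 and 27.9, 57.3 and 31.8 CPM in WT, and for Day 0 they were 2.06, 2.83 and 2.61 CPM in nph4-1 arf19-1 and 3.27, 3.02 and 3.05 CPM in WT. The Day 6 mutant sums lay below all Day 4 WT sums and above all Day 0 sums.

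**Figure D4:**
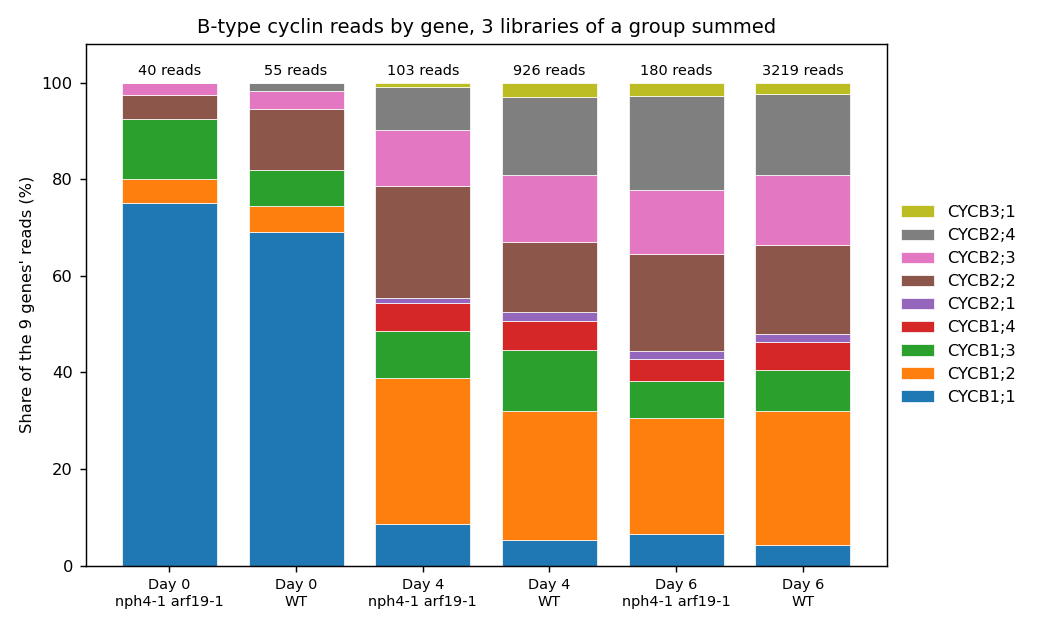
Share of the reads of the 9 B-type cyclins taken by each gene (y axis, percent), summed over the 3 libraries of each group (x axis, by day, nph4-1 arf19-1 left of WT), with the number of reads above each bar. CYCB1;1 takes 75.0% and 69.1% at Day 0 and 4.26 to 8.74% in the cultured groups.

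Levels were compared between genes as CPM per kilobase of transcript. In nph4-1 arf19-1 at Day 6 the levels of CYCB1;2 (1.38 ± 0.457) and CYCB2;2 (1.26 ± 0.156 CPM per kilobase, SD, n = 3 each) had the highest means, and both overlapped with the third, CYCB2;4 (0.928 ± 0.371). In WT at Day 6 the same first genes stood at 18.4 ± 2.48 and 12.5 ± 0.776, followed by CYCB2;4 (9.11 ± 1.26), CYCB2;3 (8.33 ± 1.27), CYCB1;3 (6.17 ± 1.68), CYCB1;4 (3.70 ± 0.550), CYCB1;1 (2.97 ± 0.515), CYCB3;1 (1.40 ± 0.510) and CYCB2;1 (1.18 ± 0.487 CPM per kilobase). Neighbours in this WT order overlapped in their library ranges except at 3 steps, those below the first, the second and the seventh gene. At Day 0 the seventh of that order led in both genotypes with no overlap with the next gene, at 1.14 ± 0.161 in nph4-1 arf19-1 and 1.32 ± 0.0882 CPM per kilobase in WT.

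Genes with and without the MSA core are set side by side for the genotype difference. At Day 6 the 5 tested genes with AACGG in their window ran from -3.65 to -2.73 on the log2 scale, with a median of -3.52, and the 3 without it from -3.77 to -3.18, with a median of -3.20, so the ranges overlapped. At Day 4 the 5 ran from -3.08 to -1.97, with a median of -2.55, and the 3 from -3.98 to -2.73, with a median of -3.58. These are descriptions of 8 genes, with no test.

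The likeness of profiles was measured as the root mean square difference of log2 CPM over the 18 libraries after each gene's own mean was taken off, among 18142 genes. The genes nearest to CYCB2;4 were AT5G66230 (0.302), AT5G56120 (0.344) and AT1G49870 (0.390), and those nearest to CYCB1;2 were AT3G42725 (0.333), GH9B8 (0.401) and AT5G66230 (0.402). For CYCB2;2 they were AT1G63100 (0.412), AT3G53380 (0.449) and AT5G50090 (0.461), and for CYCB2;3 AT1G63100 (0.366), AT4G26660 (0.381) and AT4G02800 (0.387). Each of these 4 had between 1 and 3 other B-type cyclins among its 20 nearest genes. For CYCB1;3, with 2 other members among its 20, the nearest were AT5G48460 (0.537), AT5G45700 (0.566) and ATXR6 (0.577). The profile of CYCB1;4 was closest to PPa4 (0.400), AGT2 (0.401) and AT2G45120 (0.423), and that of CYCB3;1 to AT2G23700 (0.319), AT1G20590 (0.347) and AT2G42110 (0.350), with no other member among the 20 of either. CYCB1;1 had none of the other 8 members among its 20, and its nearest genes were AT1G30690 (0.294), TPPG (0.347) and AT4G22592 (0.347). In place 19 (0.478) stood CYCB1;5 (AT1G34460), a further B1 cyclin that is not one of the 9, which was called lower in nph4-1 arf19-1 than in WT at Day 6 (-3.555, edgeR FDR 3.41e-06) and was at -1.61 at Day 4 (FDR 0.011). Genes with few reads have noisier profiles, and the values share libraries and depth, so they are descriptions.

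The partners and regulators of B-type cyclins moved in the same direction in part. Among 7 genes of the CDK and CKS list, which holds the kinases that the cyclins bind and their CKS subunits, 4 were called lower in the mutant on Day 6 and 2 on Day 4, against the 4.01% and 1.8% of all variants given above. The 4 were the B-type kinases, which act from G2 to mitosis, at -3.89 in CDKB1;2 and -2.79 to -2.71 in the other 3, while CKS1 was at -0.33 (edgeR FDR 0.143). Of 5 activators of the APC/C, which tags B-type cyclins for destruction, 3 were called lower at Day 6 and 2 at Day 4. CDC20.2, an activator in mitosis, was at -3.50 and CCS52A2 at 0.12 (FDR 0.673). CCS52A1, a related activator, was higher in nph4-1 arf19-1 at Day 6, with 12.4, 13.8 and 13.9 CPM against 6.58, 5.78 and 9.11 CPM in WT (0.89, SE 0.17, FDR 0.000163), and lay at -0.47 at Day 4 (FDR 0.0373). Of 10 genes for the spindle and cytokinesis, 8 were called lower at Day 6 and 7 at Day 4. KNOLLE, the syntaxin of the cell plate, was at -3.94 at Day 6, and the kinesin PAKRP1, at -1.69, was short of the fold limit. The list's median at Day 6 was -3.09, beside the -3.40 of the B-type cyclins.

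The other cyclin classes moved less. Of 8 tested A-type cyclins, which act in S phase and G2, 2 were called lower at Day 6 and none at Day 4 (5 and 1 had an FDR below 0.01, as 23.4% and 13% of all variants had), with a median of -1.52 at Day 6 and values of -2.52 in CYCA2;4 and -0.46 in CYCA2;3. Of 7 tested D-type cyclins, which act at the entry into the cycle, 1 was called lower at Day 6 and none at Day 4. Downward, 5 and 2 had an FDR below 0.01. At Day 6 the median was -0.995, with -3.77 in CYCD1;1 and -0.13 in CYCD3;3. CYCD2;1 was higher in nph4-1 arf19-1 at Day 6 (0.83, FDR 0.000682). Of 4 tested MYB3R genes, MYB3R4, an activator of G2 and M phase genes, was called lower at Day 6 (-2.54, SE 0.237, edgeR FDR 2.1e-08), with 4.07, 2.90 and 4.19 CPM in nph4-1 arf19-1 against 21.9, 23.6 and 17.9 CPM in WT, and not at Day 4 (-1.05, FDR 0.00174). MYB3R1 was at -0.76 at Day 6 (FDR 0.00183), MYB3R3 at 0.40 (FDR 0.0689) and MYB3R5 at 0.20 (FDR 0.548), and MYB3R2 was below the minimum for a test. The 4 tested genes of the DNA damage response list, among them SOG1 (-0.69), all had an FDR below 0.01 downward at Day 6 and none passed the fold limit.

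**Figure D5:**
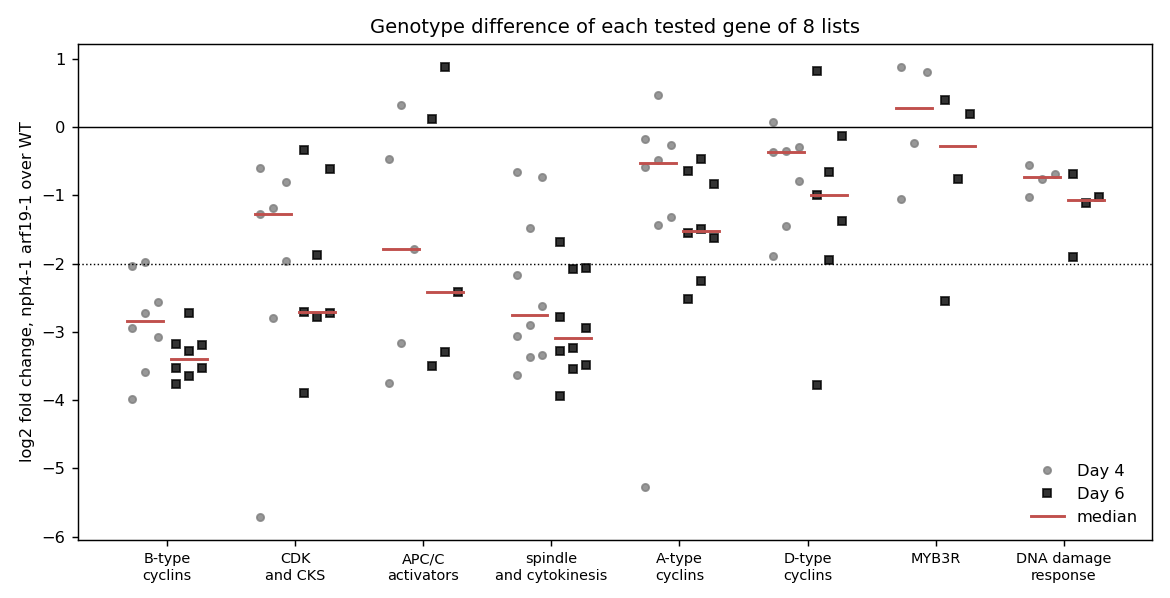
log2 fold change of nph4-1 arf19-1 over WT (y axis) for each tested gene of 8 lists (x axis) at Day 4 (circles) and Day 6 (squares), with red bars at list medians and a dotted line at the fold limit of -2. The B-type cyclins and the spindle and cytokinesis genes have medians below -2 on both days.

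Markers of other cell types moved with these results, in both directions. SUC2, a sucrose transporter gene of phloem companion cells, averaged 1.40 CPM in nph4-1 arf19-1 and 25.9 CPM in WT at Day 6 (log2 fold change -4.17, edgeR FDR 2.98e-09) and 0.530 and 11.2 CPM at Day 4. The vasculature list of 3 genes summed to 1.11 to 1.85 CPM in nph4-1 arf19-1 and 23.6 to 27.6 CPM in WT at Day 6, and to 0.138 to 1.24 CPM and 8.27 to 13 CPM at Day 4, and SUC2 was its only gene with more than 3 reads in a library on those days. APL, the phloem identity factor, had 0 reads in all Day 6 libraries. The guard cell list of 3 genes summed to 7.85 to 9.08 CPM in nph4-1 arf19-1 and 4.04 to 7.61 CPM in WT at Day 6, and to 10.5 to 12.6 CPM and 10.3 to 12.2 CPM at Day 4. Its genes went apart, since MYB60 was called lower in nph4-1 arf19-1 at Day 4 (-2.94, edgeR FDR 1.69e-05) and was at -0.91 at Day 6 (FDR 0.0462), while FAMA was at 0.80 and 0.87 (FDR 0.0133 and 0.0114). The epidermis list of 3 genes summed to 2.1 to 2.96 CPM in nph4-1 arf19-1 and 0.577 to 1.22 CPM in WT at Day 6, and to 3.45 to 6.19 CPM and 3.16 to 3.89 CPM at Day 4, with PDF1 at 0 reads on both days. The part of these markers in the result was not tested.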

How the data were processed

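The deposited counts give reads per splice variant and were not normalized by the authors, who mapped single-end reads of a stranded mRNA library to the TAIR10 genome with Bowtie 0.12.9 and kept reads that mapped to 1 place. Each library's total of mapped reads was taken from its own file and used as library size, since variants of a gene share reads and the counts sum to more than that total. The study's methods describe the 3 libraries of a group as biological replicates. With 3 libraries a group and few reads, counting error is large for most members, and intervals on read ratios cover that error only. Spread between libraries comes on top of it, as for CYCB1;2 in WT at Day 4, with 56, 124 and 67 reads.

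All variants were fitted together in edgeR 4.0.16 (R 4.3.3) with 6 group means, TMM scaling and quasi-likelihood F tests. A variant was tested where filterByExpr kept it (minimum count 10, minimum total 15), and called where |log2 fold change| exceeded 2 with a Benjamini-Hochberg FDR below 0.01. A group at 0 was given a floor of 3 reads over the group. DESeq2 1.42.0 was an alternative, beside other scalings, filters, thresholds, subsets of groups, a replicate block and fits that each omitted 1 library. The fit was tested on simulated data with a single spread for all variants, so that test does not cover differences in spread between genes. The 9 members and the gene lists were chosen with earlier results of these data known. The named genes were all 9 members, the genes of largest and smallest change at Day 6 in each list (1 of them is not reported here), the MYB3R genes, and the 3 genes nearest in profile to each tested member. ARF7, ARF19 and the cell type markers SUC2, APL, SPCH and MUTE were named beside them. CCS52A1, CYCD2;1, CYCB1;5, MYB60, FAMA and PDF1 were named after their values were seen. Promoter windows were read from the RefSeq assembly TAIR10.1 at the annotated start of each gene, and all 9 loci matched. Levels per kilobase used the annotated transcript length.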

Additional observations from a re-analysis of the deposited data

Results flagged for a closer look

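The course of CYCB1;1 differed between the genotypes by a test of the difference itself. Its change from Day 0 to Day 6 in nph4-1 arf19-1 less that in WT was -2.54 on the log2 scale (SE 0.514, edgeR FDR 0.000633), with 9, 13 and 8 reads at Day 0 and 6, 4 and 2 reads at Day 6 in nph4-1 arf19-1, against 12, 16 and 10 reads and 36, 52 and 49 reads in WT. The contrast was chosen after the data had been seen, and it ran between -2.97 and -2.27 when each library was left out in turn. The label "yucasin" on the Day 6 nph4-1 arf19-1 libraries cannot be told apart from the genotype in this value.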

How the results depend on the processing

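Depth was a limit, since most members had under 15 reads in each nph4-1 arf19-1 library. Same-numbered samples of different groups correlated at -0.108 to 0.272, and 5 of the 45 correlations were above 0.1. Between the genotypes they were 0.272, -0.03 and 0.176 at Day 4 and 0.133, 0.054 and 0.053 at Day 6. These values do not settle whether libraries of a day were paired. A replicate block moved some edgeR FDRs between Day 4 and Day 6, from 0.0243 to 0.00882 for CYCB1;3 in WT and from 0.0104 to 0.00386 for CYCB2;4 in nph4-1 arf19-1. With the replicate block the calls among the 8 tested genes numbered 8 at Day 6 and 7 at Day 4 between the genotypes, 7 in WT and 3 in nph4-1 arf19-1 between Day 0 and Day 4, 3 for Day 6 nph4-1 arf19-1 against Day 4 WT and 0 in the other comparisons, the same counts as without it. Fits that left out a single library tested up to 9 genes, since CYCB2;1 then passed the filter. They gave 8 to 9 calls at Day 6 and 5 to 8 at Day 4 between the genotypes. Between Day 0 and Day 4 they gave 2 to 3 calls in nph4-1 arf19-1 and 7 to 8 in WT. Between Day 4 and Day 6 they gave 0 to 1 in nph4-1 arf19-1 and 0 to 3 in WT. For Day 6 nph4-1 arf19-1 against Day 4 WT there were 1 to 4. There were 0 at Day 0 and for the change of the genotype difference. With an FDR below 0.05 and no fold limit, the calls were 8 for WT and 1 for nph4-1 arf19-1 between Day 4 and Day 6, 5 for nph4-1 arf19-1 between Day 0 and Day 4, and 8 for Day 6 nph4-1 arf19-1 against Day 4 WT. At this setting 15.6% (WT) and 16.4% (nph4-1 arf19-1) of all variants were called higher between Day 4 and Day 6. Between Day 0 and Day 4 in nph4-1 arf19-1 it was 43%. For Day 6 nph4-1 arf19-1 against Day 4 WT, 24.7% were called lower. Library totals in place of TMM gave 5 calls for nph4-1 arf19-1 between Day 0 and Day 4 and 1 for WT between Day 4 and Day 6. With these totals 34.9% and 0.893% of all variants were called higher in the same comparisons. A fit of only the groups compared gave 1 call for nph4-1 arf19-1 between Day 0 and Day 4. There only 1 of the 9 genes was tested, and 20.8% of all variants were called higher. DESeq2, no filter, and a single variant per gene (lowest-numbered or most-read) each gave 1 call for nph4-1 arf19-1 between Day 4 and Day 6. In that order 1.39%, 1.24%, 1.47% and 1.46% of all variants were called higher. Of the single genes, CYCB1;1 in WT between Day 0 and Day 4 turned to 0.959 with library totals, 0.025 with DESeq2 and 0.072 with only the groups compared, and ran from -0.428 to 0.171 without single libraries. At Day 4 between the genotypes it was called with library totals (-2.12) and with DESeq2 (-2.05). The change of the genotype difference ran from -0.988 to 0.104 in CYCB2;3 and from -0.495 to 2.804 in CYCB3;1, and CYCB1;3 in nph4-1 arf19-1 between Day 4 and Day 6 ran from -0.065 to 0.923, all without single libraries. The cause was not tested.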
